A study of Homo sapiens with 18 samples.

Results

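The doxycycline effect on every gene was compared between a K562 line carrying an inducible transcriptional activator (VPR-D9) and a K562 line carrying an inducible repressor (KRAB-D9). K562 is an established cell line from a chronic myeloid leukaemia. The 8 libraries compared, of 18 in the series, were D2000, the doxycycline group of VPR-D9, its untreated VPR-D9 cells, doxycycline-treated KRAB-D9 cells and untreated KRAB-D9 cells, with 2 libraries in each group. A further 4 KRAB-D9 libraries were read beside them, doxycycline with interferon and interferon alone. Their interferon-alpha was given at 1000 U/mL for 24 h, and doxycycline was started 24 h before it and kept on. Doxycycline switched on dCas9-VPR or dCas9-KRAB, catalytically dead Cas9 fused to an activating or a silencing domain. Per the labels' protocols it was given at 2 µg/mL, which is taken here for D2000 and treated KRAB-D9 only. The sources used here do not give what the codes D2000 and D6 (a further doxycycline group of VPR-D9) stand for. How long doxycycline was given without interferon, and whether a line is a single clone, are not given either. The doxycycline dose of D6 is treated as not known. Whether the pair of libraries in a group are separate cultures is not stated, and p-values then cover the spread between these libraries alone, which may be technical. The lines are labelled isogenic with parental K562. No doxycycline-treated parental cells were analysed here, so effects of doxycycline itself and effects of a fusion cannot be told apart.

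Of 41285 genes in the table, 22143 passed a filter on low counts and were tested for the difference between the 2 effects, VPR-D9 minus KRAB-D9. A gene was called moved alike when it was called in the same direction in both lines, and moved in opposite ways when it was called in opposite directions with the difference also called. Values are log2 fold changes of doxycycline-treated over untreated cells (± standard error), from an edgeR quasi-likelihood model, with calls at a Benjamini-Hochberg adjusted p under 0.05. Levels are CPM, counts scaled to library size with TMM (trimmed mean of M-values) factors.

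SAMD9 encodes a cytoplasmic, interferon-inducible protein that restrains cell growth and translation, and its paralogue SAMD9L lies beside it on chromosome 7. K562 cells keep a partly erythroid programme, with haem synthesis, globin and red cell membrane genes under GATA1 and KLF1, beside some megakaryocyte genes. Making ribosomes is a main biosynthetic task of growing cells: RNA polymerase I transcribes the ribosomal RNA precursor, the small subunit processome folds and cleaves it, and other factors assemble the large subunit. MYC drives much of this machinery. The transcription factor ATF4 raises amino acid synthesis and transport genes when translation initiation is restrained by stress, and SREBP factors do so for sterol synthesis genes when cholesterol is short.

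The compared libraries held 45964285 to 63037568 counts. The D2000 libraries stood apart from the rest. They had 20180 and 20001 genes with at least 10 counts, against 16597 to 18573 in the other 16 libraries, and TMM factors of 1.167 and 1.192, against 0.95 to 1.038. Their effect followed expression level: its median was 0.596 for genes below 0.25 CPM and -0.291 for genes above 64 CPM. The matching medians were 0.098 and -0.051 in D6 and 0.13 and -0.061 in KRAB-D9. The low-count filter could keep a gene for its counts in as few as 2 libraries. Genes below 0.25 CPM can thus include some kept through D2000 alone. Whether this raised the D2000 median there was not tested. Many results that rest on D2000, though not all, are therefore given again with cyclic loess scaling (which removes a trend with expression level) or with D6 in place of D2000. In these bulk samples, fewer cells of a type and less RNA per cell cannot be told apart.

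**Figure D1:**
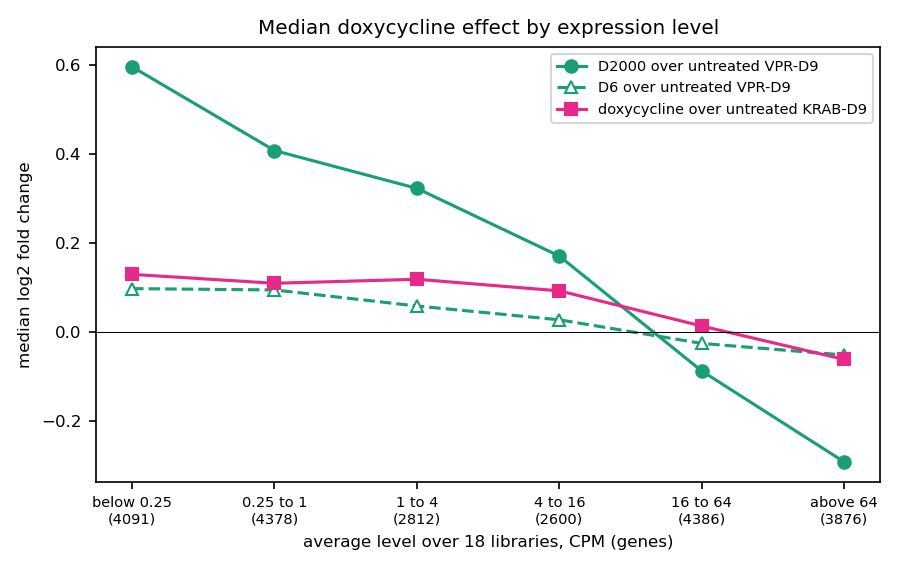
Median log2 fold change of doxycycline-treated over untreated cells (vertical axis) for genes in 6 bins of average CPM over 18 libraries (horizontal axis, gene numbers in brackets), in D2000, D6 and KRAB-D9. The D2000 line runs from 0.596 in the lowest bin to -0.291 in the highest, while D6 and KRAB-D9 stay between -0.061 and 0.13.

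SAMD9 (ENSG00000205413.8, chromosome 7, 93099513 to 93118023, GRCh38) moved in opposite ways in the 2 lines. It stood at 974 and 948 CPM in the D2000 libraries and 59.9 and 61.4 CPM in untreated VPR-D9. In KRAB-D9 it stood at 0 and 0.117 CPM with doxycycline (0 and 6 counts), against 0.75 and 0.364 CPM in untreated cells (40 and 16 counts). The libraries of treated and untreated cells did not overlap in either line. The effects were 3.99 ± 0.06 in VPR-D9 and -3.23 ± 0.50 in KRAB-D9, a difference of 7.22 ± 0.46 (adjusted p = 1.91e-13 by edgeR). D6, which shares the untreated VPR-D9 libraries, gave 3.97 ± 0.06. In the 4 KRAB-D9 libraries that received interferon, which the classes do not use, SAMD9 also fell with doxycycline (-6.08 ± 0.11). SAMD9L was 5.45 and 6.25 CPM in D2000 and 3.6 and 4.61 CPM in untreated VPR-D9, 0.837 and 0.429 CPM with doxycycline and 0.487 and 0.273 CPM without it in KRAB-D9. SAMD9L was called higher in D2000 (0.51 ± 0.15, edgeR adjusted p = 0.00544) and not called in D6 (-0.06 ± 0.16) or KRAB-D9 (0.69 ± 0.35). With interferon present it fell with doxycycline (-0.51 ± 0.13, edgeR adjusted p = 0.00278). Its difference between the lines was not called (-0.19 ± 0.38, edgeR adjusted p = 0.786).

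The promoters of both genes, from RefSeq (GRCh38.p14), are shown because SAMD9 moved in opposite ways while its neighbouring paralogue had no called difference. Each sequence runs from 250 bases before to 50 after the listed start, 5′ to 3′ on the gene's strand. Capitals mark the core of an interferon response element, written as GAAA, any 2 bases, then GAAA, and searched on both strands. SAMD9 (chr7:93117930-93118229, minus strand) holds it once, with its first base at -136 from the start. SAMD9L (chr7:93148336-93148635, minus strand) has no match in this window. Both genes stood higher in KRAB-D9 with interferon alone than in untreated KRAB-D9. The means were 54.25 against 0.557 CPM for SAMD9 and 34.5 against 0.38 CPM for SAMD9L. A role of the motif was not tested.
SAMD9: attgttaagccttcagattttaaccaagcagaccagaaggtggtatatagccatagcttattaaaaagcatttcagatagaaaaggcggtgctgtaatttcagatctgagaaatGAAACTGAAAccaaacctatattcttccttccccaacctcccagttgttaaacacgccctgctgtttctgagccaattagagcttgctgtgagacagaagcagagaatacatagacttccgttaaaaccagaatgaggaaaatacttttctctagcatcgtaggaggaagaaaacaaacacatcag
SAMD9L: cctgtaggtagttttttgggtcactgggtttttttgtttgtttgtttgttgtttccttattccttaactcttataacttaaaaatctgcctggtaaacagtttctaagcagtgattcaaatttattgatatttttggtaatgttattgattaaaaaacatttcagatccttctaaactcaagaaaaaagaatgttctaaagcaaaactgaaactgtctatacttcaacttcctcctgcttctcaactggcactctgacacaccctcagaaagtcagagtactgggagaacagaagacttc

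In VPR-D9, 46.1% of the genes tested were called in D2000, of which 4853 rose (21.9%) and 5348 fell (24.2%). In KRAB-D9, 24.7% were called with doxycycline, of which 2654 rose (12%) and 2815 fell (12.7%). D6 called 6.6% of genes, 3.19% higher and 3.41% lower. Treated and untreated libraries did not overlap for 72% of all genes tested in VPR-D9 (D2000) and 57.9% in KRAB-D9, the background for each statement on overlap. The 2 effects share no library. Genes moved alike made up 15.3% of those tested and genes moved in opposite ways 3.53%. Among the genes called in both lines, 1407 rose in both (6.35% of genes tested), 1991 fell in both (8.99%), 330 rose in VPR-D9 and fell in KRAB-D9 (1.49%), and 451 fell in VPR-D9 and rose in KRAB-D9 (2.04%). The median effects in VPR-D9 and KRAB-D9 were 0.62 and 0.47 for genes higher in both, and -0.62 and -0.29 for genes lower in both. They were 0.69 and -0.55 for the genes that rose in VPR-D9 and fell in KRAB-D9, and -0.37 and 0.28 for the reverse. Both effects reached 2-fold for 148, 57, 58 and 10 genes of these 4 classes, in that order. Over all genes tested the effects of the 2 lines had a Pearson r of 0.117 and a Spearman rho of 0.261, and over the 13662 genes with a mean of at least 1 CPM 0.263 and 0.431. These are descriptions across genes, which are not independent replicates.

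The difference between the effects was called for 6930 genes (31.3%), 2694 more positive in VPR-D9 (12.2%) and 4236 more negative (19.1%). That split depends on the scaling. Library totals gave 4208 more positive and 2450 more negative, with median effects of all genes of 0.29 in VPR-D9 and 0.06 in KRAB-D9, and cyclic loess gave 3243 and 2954. Genes moved alike numbered 2146 higher and 1367 lower with library totals, and 1620 and 1580 with cyclic loess. Genes moved in opposite ways numbered 468 (higher in VPR-D9) and 279 (lower in VPR-D9) with library totals, and 445 and 298 with cyclic loess. The remaining called differences were 3581 genes called only in VPR-D9, 676 called only in KRAB-D9 and 206 called in neither. Of the 3398 genes moved alike, 1686 also had a called difference in size, and 1592 of those moved further in VPR-D9.

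At the edge of the threshold, FAM210A was just inside the genes moved alike (-0.84 ± 0.08 in VPR-D9 and -0.20 ± 0.07 in KRAB-D9) and MYO16 just outside (-1.04 ± 0.15 and -0.22 ± 0.09). ZNF100 was just inside the opposite genes (-0.47 ± 0.08 and 0.20 ± 0.08) and MTMR12 just outside (-0.24 ± 0.06 and 0.15 ± 0.06).

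The KRAB-D9 side of each class was read again in the interferon-treated KRAB-D9 libraries, doxycycline with interferon over interferon alone, where 22.3% of all genes were called, 10.4% higher and 11.9% lower. Of the genes higher in both lines 931 of 1407 rose there (66.2%) and 3 fell. Of those lower in both, 1505 of 1991 fell (75.6%) and 0 rose by the same edgeR test. For the genes that rose in VPR-D9 and fell in KRAB-D9, 189 of 330 fell (57.3%), 0 rose, and 308 had the same sign as without interferon. Among the genes lower in VPR-D9 and higher in KRAB-D9, 279 of 451 rose (61.9%), 1 fell, and 424 had the same sign. The library pair with interferon alone had the widest spread of the series, 19.5 times counting noise, where the remaining groups had 4.59 to 6.68 times. The dispersion was shared over groups, so errors of this comparison may be too small.

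**Figure D2:**
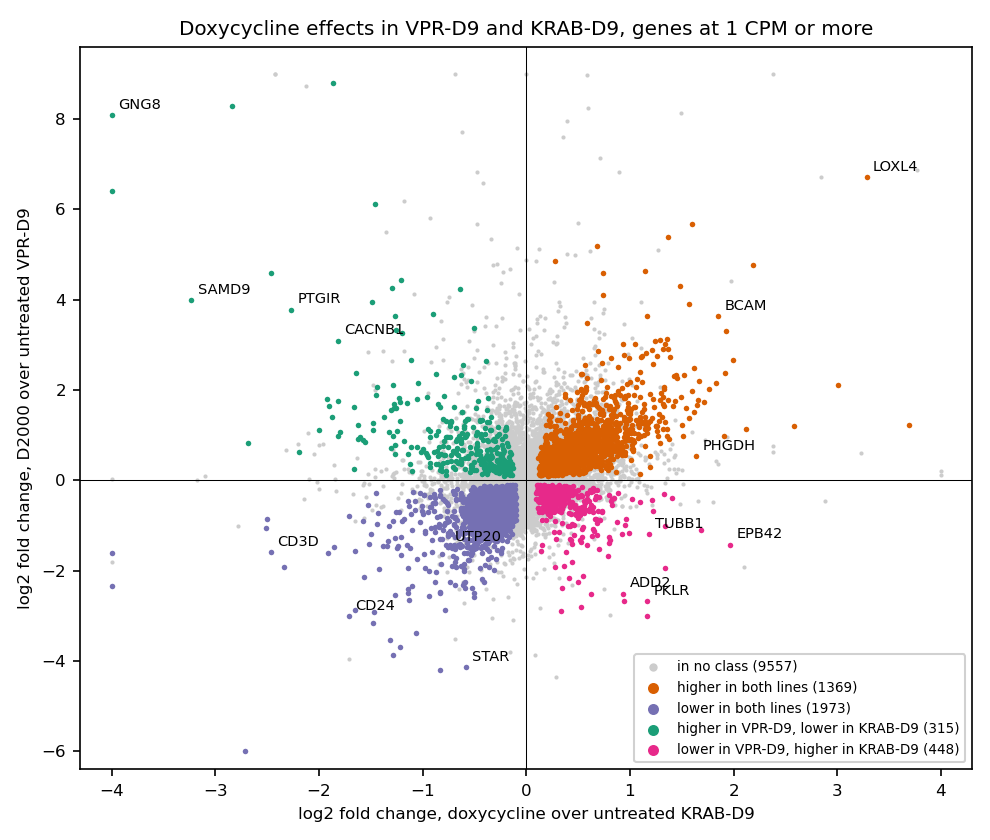
Each point is a gene with a mean of at least 1 CPM, plotted by its log2 fold change with doxycycline in KRAB-D9 (horizontal axis) and in D2000 over untreated VPR-D9 (vertical axis), coloured by class, with points beyond the axes drawn at the edge. The classes hold 1369 genes higher in both lines, 1973 lower in both, 315 that rose in VPR-D9 and fell in KRAB-D9, and 448 the reverse at this level.

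Of 50 erythroid genes, 33 fell and 5 rose in D2000 (median -0.46, against 0.06 over all genes tested), while 36 rose and 3 fell with doxycycline in KRAB-D9 (median 0.44, against 0.02). The difference was called for 41, all more negative in VPR-D9 (median -1.33, against -0.03), and 24 of the 50 fell in VPR-D9 and rose in KRAB-D9. With cyclic loess 28 fell and 11 rose in D2000, and 20 were in that class. With interferon present, doxycycline raised 31 and lowered 5 in KRAB-D9. With D6 in place of D2000, 17 fell and 0 rose in VPR-D9 (median -0.14), the difference was more negative for 34, and 16 fell in VPR-D9 and rose in KRAB-D9. The summed level of the list was 3080 to 3170 CPM in D2000, 4780 to 4810 CPM in untreated VPR-D9, 10300 CPM in both doxycycline-treated KRAB-D9 libraries and 8350 to 8440 CPM in untreated KRAB-D9.

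PKLR, the pyruvate kinase of red cells and liver, which was counted in the glycolysis list and not in the erythroid one, stood at 4.91 and 5 CPM in D2000 and 33 and 30.7 CPM in untreated VPR-D9, and at 153 and 144 CPM with doxycycline and 65.4 and 66.8 CPM without it in KRAB-D9. Treated and untreated libraries were apart in both lines. The effects were -2.69 ± 0.07 and 1.17 ± 0.06, a difference of -3.85 ± 0.09 (edgeR adjusted p = 5.43e-29), and D6 gave -0.71. EPB42, the red cell membrane protein that ties band 3 to the red cell skeleton, was 0.153 and 0.197 CPM in D2000 and 0.485 and 0.458 CPM in untreated VPR-D9, against 15.3 and 16.9 CPM with doxycycline and 3.79 and 4.5 CPM without it in KRAB-D9. Its effects were -1.42 ± 0.34 and 1.96 ± 0.16. Its libraries were apart in both lines, at under 1 CPM throughout in VPR-D9, and the difference was -3.39 ± 0.37.

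ADD2 and MFSD2B were in no list, and TUBB1 was in the megakaryocyte one. ADD2, the beta-adducin of the membrane skeleton, was 2.27 and 1.98 CPM in D2000 and 11.7 and 12.6 CPM in untreated VPR-D9, and 190.3 and 189 CPM with doxycycline and 96.6 and 102 CPM without it in KRAB-D9 (difference -3.45 ± 0.10, edgeR adjusted p = 2.51e-26). TUBB1, the beta-tubulin of platelets, showed the same order, at 2.48 and 2.25 CPM in D2000, 5.82 and 5 CPM in untreated VPR-D9, 40.6 and 39.7 CPM with doxycycline and 18.5 and 16.9 CPM without it in KRAB-D9 (-2.37 ± 0.16). MFSD2B, a sphingosine-1-phosphate exporter of red cells and platelets, was 10.6 and 9.99 CPM in D2000 and 23.1 and 23.3 CPM in untreated VPR-D9, and 26.5 and 27.1 CPM with doxycycline and 13 and 14 CPM without it in KRAB-D9 (-2.16 ± 0.13). The untreated levels of MFSD2B were nearer to each other in the 2 lines than those of ADD2 or EPB42.

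The haem enzyme ALAS2, the first step of haem synthesis in red cell precursors, was 42.1 and 38.7 CPM in D2000 and 117 and 115 CPM in untreated VPR-D9. In KRAB-D9 it was 408 and 389 CPM with doxycycline and 238 and 252 CPM without it (effects -1.52 ± 0.05 and 0.70 ± 0.04). SPTB, beta-spectrin, had effects of -1.93 ± 0.05 and 0.27 ± 0.05. The transferrin receptor TFRC fell by 1.57 ± 0.04 on the log2 scale in D2000, to 223 and 219 CPM against 645 and 664 CPM in untreated VPR-D9, while its rise in KRAB-D9 was small (0.14 ± 0.03) and was lost without doxycycline library 1 (edgeR adjusted p = 0.105). KLF1, a master regulator of red cell genes, had effects of -1.15 ± 0.06 and 0.27 ± 0.05. GATA1 fell in D2000 (-0.68 ± 0.04) and was not called in KRAB-D9 (0.04 ± 0.04).

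Globin genes differed among themselves. HBG1 averaged 15.9 CPM in D2000 and 55.9 CPM in untreated VPR-D9, and 368 CPM with doxycycline and 271 CPM without it in KRAB-D9 (effects -1.81 ± 0.11 and 0.44 ± 0.09). HBG2, a near-identical copy with which it may share reads, had effects of -1.59 ± 0.09 and 0.38 ± 0.07. HBZ fell in D2000 (-3.09 ± 0.18) and was not called in KRAB-D9 (-0.13 ± 0.11), and HBE1 was called in neither line. HBM, a globin-like gene of the alpha cluster, had 1 count over both D2000 libraries and 24 in untreated VPR-D9 (ratio 0.0372, 95% counting interval 0.000904 to 0.228). Its difference was lost with D6 in place of D2000 (0.01, edgeR adjusted p = 1). AHSP, the chaperone of free alpha-globin, had 2 counts in D2000 and 13 in untreated VPR-D9 (ratio 0.137, interval 0.015 to 0.606). In KRAB-D9 it stood at 10.9 and 11.7 CPM with doxycycline and 5.92 and 5.82 CPM without it. Its opposite movement was lost without untreated VPR-D9 library 1 (edgeR adjusted p = 0.611 in VPR-D9) and without D2000 library 2 (0.135).

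Some haem genes rose in both lines instead. ALAD, the second enzyme of haem synthesis, was 91.7 and 87.3 CPM in D2000 and 48.1 and 50.6 CPM in untreated VPR-D9, and 63 and 60.4 CPM with doxycycline and 31.1 and 34.3 CPM without it in KRAB-D9. Its effects, 0.86 ± 0.06 and 0.92 ± 0.07, were not called different (-0.06 ± 0.09, edgeR adjusted p = 0.69). UROS, the fourth enzyme, rose by 0.46 ± 0.07 and 0.83 ± 0.07. PPOX, XK and BPGM were the other members higher in both, and HBA2, ANK1 and SLC25A38 the members lower in both.

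The promoter of EPB42 (chr15:43220969-43221268, minus strand, RefSeq GRCh38.p14) is shown for the erythroid genes. Capitals mark AGATAA, a form of the GATA factor motif, searched on both strands and chosen after values were seen. It holds 2 matches, with first bases at -208 and -61. Of the 29 erythroid genes with a promoter sequence, 14 held the motif (48.3%), against 5.93% of the 12373 tested genes with one. The share was 8.31% in the whole class lower in VPR-D9 and higher in KRAB-D9. A match is a description of letters, not a bound site.
EPB42: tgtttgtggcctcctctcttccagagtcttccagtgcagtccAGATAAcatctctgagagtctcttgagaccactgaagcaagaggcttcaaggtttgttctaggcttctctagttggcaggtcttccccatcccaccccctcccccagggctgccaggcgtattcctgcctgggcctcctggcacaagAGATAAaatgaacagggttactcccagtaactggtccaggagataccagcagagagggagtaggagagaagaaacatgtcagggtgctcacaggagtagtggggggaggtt

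Other genes of this class were not in the erythroid list. H1-2, a linker histone, was 151 and 145 CPM in D2000 and 334 and 342 CPM in untreated VPR-D9, and 874 and 842 CPM with doxycycline and 456 and 451 CPM without it in KRAB-D9. No libraries overlapped within a line, and its difference was -2.11 ± 0.05 (edgeR adjusted p = 4.26e-28). Histone mRNAs mostly lack a polyA tail and the libraries were polyA-selected, so its level covers only tailed transcripts. C17orf99 had effects of -1.94 ± 0.22 and 1.34 ± 0.14, the extracellular matrix gene HMCN1 a level 2-fold lower in D2000 and an effect of 1.34 ± 0.19 in KRAB-D9, and the olfactory receptor gene OR2AT4 -0.99 ± 0.13 and 0.95 ± 0.12.

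**Figure D3:**
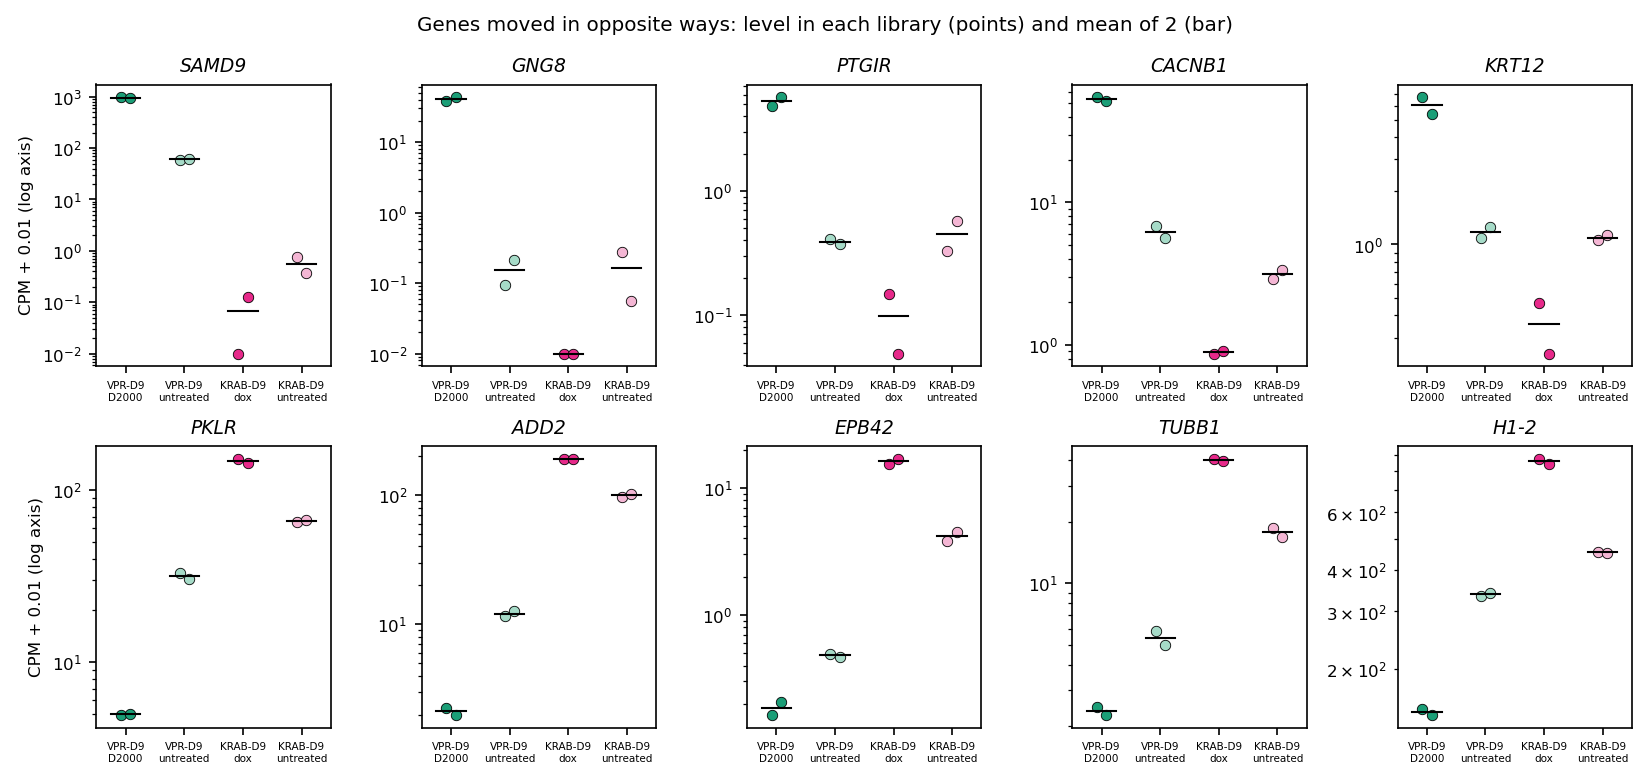
CPM plus 0.01 on a log axis for 10 genes moved in opposite ways, in D2000 and untreated VPR-D9 and in doxycycline-treated (dox) and untreated KRAB-D9. Points are the 2 libraries of a group and bars their mean. SAMD9, GNG8, PTGIR, CACNB1 and KRT12 are higher in D2000 and lower in treated KRAB-D9 than in the untreated cells of each line, and PKLR, ADD2, EPB42, TUBB1 and H1-2 are the reverse.

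The class that rose in VPR-D9 and fell in KRAB-D9, to which SAMD9 belongs, had a median level of 25 CPM over the 4 groups. CACNB1, a subunit of voltage-gated calcium channels, was 54.7 and 51.7 CPM in D2000 and 6.84 and 5.62 CPM in untreated VPR-D9, and 0.857 and 0.897 CPM with doxycycline and 2.89 and 3.34 CPM without it in KRAB-D9. Its effects were 3.09 ± 0.12 and -1.82 ± 0.19 (difference 4.91 ± 0.22, edgeR adjusted p = 2.08e-20). Both directions were also called with 2.15 in D6, which shares the untreated libraries, and -2.02 in interferon-treated KRAB-D9. AIF1, a calcium-binding protein of macrophages, was 58.7 and 55 CPM in D2000 and 12.5 and 14.1 CPM in untreated VPR-D9, and 6.28 and 4.7 CPM with doxycycline and 14.3 and 12.4 CPM without it in KRAB-D9 (4.29-fold higher in D2000 and an effect of -1.29 ± 0.13 in KRAB-D9). COL1A1, a fibrillar collagen chain, had effects of 3.33 ± 0.15 and -1.25 ± 0.21. It reached 30.9 and 30.03 CPM in D2000, against 3.38 and 2.67 CPM in untreated VPR-D9.

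The platelet collagen receptor GP6 showed its larger change in KRAB-D9. It was 9.43 and 8.85 CPM in D2000 and 5.52 and 4.83 CPM in untreated VPR-D9, and 2.03 and 2.52 CPM with doxycycline and 14.3 and 14.9 CPM without it in KRAB-D9 (0.82 ± 0.15 and -2.68 ± 0.17). NBEAL2, needed for platelet alpha-granules, had effects of 1.03 ± 0.05 and -0.26 ± 0.05. Of 15 megakaryocyte markers tested, 7 rose and 2 fell in D2000 (median 0.48), and 2 rose and 6 fell in KRAB-D9 (median -0.13). ITGA2B and ITGB3, the subunits of the platelet fibrinogen receptor, were also in the class of SAMD9, whereas TUBB1 was in the reverse class.

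GNG8, a G protein gamma subunit, was 37.8 and 43.2 CPM in D2000 and 0.0837 and 0.205 CPM in untreated VPR-D9 (8.09 ± 0.28). In doxycycline-treated KRAB-D9 it had 0 counts, against 16 in untreated cells, which is at least 5.56-fold lower. That side was lost without untreated KRAB-D9 library 1 (edgeR adjusted p = 0.174), and with interferon present doxycycline gave -1.79 ± 0.68 (adjusted p = 0.055). PTGIR, the prostacyclin receptor, lies beside it on chromosome 19 (46620468 to 46625089, with GNG8 at 46634076 to 46634685, GRCh38). It was 4.85 and 5.69 CPM in D2000 and 0.402 and 0.363 CPM in untreated VPR-D9, and 0.14 and 0.039 CPM with doxycycline and 0.319 and 0.569 CPM without it in KRAB-D9 (3.78 ± 0.41 and -2.27 ± 0.60). The KRAB-D9 call for PTGIR was lost without untreated library 2 (edgeR adjusted p = 0.0741) or doxycycline library 2 (0.101).

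DACT3, an inhibitor of WNT signalling, lies on the other side of GNG8 (46647551 to 46661182) and was looked up after these values were seen. It was 13.7 and 13.7 CPM in D2000 and 5.07 and 5.3 CPM in untreated VPR-D9, and 3.43 and 2.93 CPM with doxycycline and 7.52 and 9 CPM without it in KRAB-D9. Its libraries did not overlap within a line, and its effects were 1.40 ± 0.14 and -1.38 ± 0.16 (difference 2.77 ± 0.21, edgeR adjusted p = 9.71e-14). With interferon present it fell as well (-1.19 ± 0.16). The neighbouring CALM3 rose in D2000 (0.47 ± 0.04) and was not called in KRAB-D9 (-0.01 ± 0.04). PRKD2 gave 0.25 ± 0.06 and -0.10 ± 0.06, the second not called.

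Several KRAB-D9 effects of this class rested on few counts. PTGER1, a prostaglandin E receptor, was 11.3 and 10.5 CPM in D2000, and had 2 counts in doxycycline-treated KRAB-D9 and 15 in untreated cells (ratio 0.128, interval 0.0142 to 0.55). FRY, a regulator of cell shape, had 648 counts in D2000 and 1 in untreated VPR-D9 (ratio 578, interval 103 to 22900), with -1.86 ± 0.51 in KRAB-D9. Each of these KRAB-D9 falls was lost without untreated library 2 (edgeR adjusted p = 0.303 for PTGER1 and 0.0643 for FRY) or doxycycline library 1 (0.267 and 0.112). The cation channel TRPM2 gave 1.76 ± 0.38 and -1.81 ± 0.62, and its fall was lost without the same libraries (edgeR adjusted p = 0.297 and 0.412). The keratin KRT12 gave 2.38 ± 0.34 and -1.64 ± 0.42, with the fall lost without doxycycline library 2 (edgeR adjusted p = 0.0812). The peptidase ACE gave 1.63 ± 0.33 and -1.66 ± 0.38. GOLGA6L4, of a family of near-identical copies, gave 1.65 ± 0.41 and -1.90 ± 0.44, its rise being lost without D2000 library 1 (edgeR adjusted p = 0.0872).

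The most positive differences outside these classes were genes with almost no counts in untreated VPR-D9. DPEP1, a dipeptidase, was 43.9 and 48.1 CPM in D2000 with no counts in untreated VPR-D9, at least 1880-fold higher, and had 0 and 1 counts in treated and untreated KRAB-D9. RNF223 reached 145 and 157 CPM in D2000 against 2 counts in untreated VPR-D9 (ratio 9270, interval 2570 to 76600). DMKN was at least 367-fold higher in D2000, and TRERF1 at least 29.1-fold. TRERF1 did not follow this pattern in its levels, since it stayed higher in KRAB-D9 (1.35 and 2.79 CPM with doxycycline and 0.937 and 1.82 CPM without it) than in D2000 (0.751 and 0.666 CPM). PIGR, the polymeric immunoglobulin receptor, had 613 counts against 1 (ratio 547, interval 97.7 to 21600) and TMEM255A 1847 against 3 (ratio 549, interval 188 to 2660). MPP2 was 12.4 and 12.6 CPM in D2000 and 0.0502 and 0.0631 CPM in untreated VPR-D9 (7.72 ± 0.48). Differences of DPEP1 and RNF223 were lost without untreated KRAB-D9 library 1 (edgeR adjusted p = 1 for each), which held their only KRAB-D9 count, and that of TMEM255A without library 2 (0.99). In D6 these genes reached lower levels than in D2000, for example 7.33 CPM for DPEP1 and 52.6 CPM for RNF223, while SAMD9 was at 948 CPM.

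The integrin ITGAM, a myeloid surface marker, was called in VPR-D9 and not in KRAB-D9. It was 192 and 191 CPM in D2000 and 7.41 and 8.34 CPM in untreated VPR-D9, and 1.06 and 0.78 CPM with doxycycline and 1.11 and 1.02 CPM without it in KRAB-D9 (difference 4.82 ± 0.23, edgeR adjusted p = 2.35e-19). The KRAB-D9 libraries overlapped. Of 16 myeloid markers, 5 rose and 1 fell in D2000, 0 rose and 5 fell in KRAB-D9, and 9 differences were called, all more positive in VPR-D9. In the interferon-treated KRAB-D9 libraries 6 fell and 0 rose. Their summed level was 411 to 418 CPM in D2000, 163 to 167 CPM in untreated VPR-D9, 51.6 to 53 CPM with doxycycline and 90.2 to 93.1 CPM without it in KRAB-D9. ITGAM is counted in this sum and made up most of its rise in D2000. The lymphoid sum was under 22 CPM in every library compared. Of 16 fibroblast and epithelial markers in the file, only LUM and KRT5 were at 0 in all 8 libraries. The 11 tested members of that list summed to 1180 to 1210 CPM in D2000 and 1370 to 1380 CPM in untreated VPR-D9. In KRAB-D9 they summed to 720 to 757 CPM with doxycycline and 1030 to 1050 CPM without it. The part of other cells in these results was not tested.

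Among the most negative differences, STAR moved alike but far more in VPR-D9. STAR carries cholesterol into mitochondria for steroid synthesis. It was 9.37 and 9.17 CPM in D2000 and 164 and 163 CPM in untreated VPR-D9, and 18.2 and 17.7 CPM with doxycycline and 27.8 and 25.8 CPM without it in KRAB-D9 (-4.14 ± 0.06 and -0.58 ± 0.06). With D6 in place of D2000 its difference was not called (-0.20, edgeR adjusted p = 0.0879). WNT5B, a secreted signal, fell in D2000 (-3.80 ± 0.41) and was not called in KRAB-D9 (-0.16 ± 0.13), and its difference too was lost with D6 (edgeR adjusted p = 0.532). CA1, a carbonic anhydrase of red cells, gave -2.82 ± 0.43 and 0.53 ± 0.16, the rise being lost without untreated KRAB-D9 library 2 (edgeR adjusted p = 0.0913) or doxycycline library 2 (0.0633). NRG4, an epidermal growth factor family ligand, was not called in VPR-D9 (-0.46 ± 0.30) and rose in KRAB-D9 (2.88 ± 0.61), where it stayed under 0.5 CPM.

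Ribosome assembly genes fell in both lines. Of 60 small subunit processome genes tested, 58 fell in D2000 (median -0.93) and 54 with doxycycline in KRAB-D9 (median -0.40), with 0 higher in either by the edgeR test, and 54 fell in both. Of 61 large subunit assembly genes, 57 fell in D2000 (median -0.92) and 51 in KRAB-D9 (median -0.34), and 51 fell in both, while 1 rose in both. For RNA polymerase I and nucleolar genes the falls were 27 of 29 (median -0.68) and 20 of 29 (-0.31). In the interferon-treated KRAB-D9 libraries 55 of 60, 50 of 61 and 21 of 29 members fell. The falls were larger in D2000 for 55, 55 and 23 members of the 3 lists. This size order was turned round with D6: in D6 only 5, 7 and 4 members fell, and with D6 in place of D2000 the difference was more positive for 49, 43 and 17 members and more negative for 0 of each list. SAMD9 was at 961 CPM in D2000 and 948 CPM in D6.

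UTP20, a large scaffold protein of the small subunit processome, was 61.4 and 62.5 CPM in D2000 and 170.5 and 174 CPM in untreated VPR-D9, and 88 and 85 CPM with doxycycline and 147 and 144 CPM without it in KRAB-D9 (-1.48 ± 0.04 and -0.75 ± 0.04). LTV1, an export factor of the small subunit, gave -1.47 ± 0.05 and -0.40 ± 0.05, and the rRNA methyltransferase FBL -1.15 ± 0.04 and -0.37 ± 0.04. DDX21, a nucleolar helicase, was 374 and 371 CPM in D2000 and 995 and 1008 CPM in untreated VPR-D9, and 888 and 863 CPM with doxycycline and 1232 and 1241 CPM without it in KRAB-D9. In each of these genes the treated libraries lay below the untreated ones in both lines. The nucleolar proteins NCL (-1.31 ± 0.04 and -0.48 ± 0.04), NOLC1 (-1.40 ± 0.04 and -0.49 ± 0.04) and TCOF1 (-1.28 ± 0.05 and -0.41 ± 0.04) fell as well.

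MYC, the transcription factor that drives ribosome assembly genes, was 53.3 and 56 CPM in D2000 and 164 and 168 CPM in untreated VPR-D9, and 197 and 201 CPM with doxycycline and 281 and 292 CPM without it in KRAB-D9. It fell in both lines, further in D2000 (-1.60 ± 0.04 and -0.52 ± 0.04, difference -1.08 ± 0.06, edgeR adjusted p = 6.61e-18), and was not called in D6 (0.08 ± 0.04). The promoter of UTP20 (chr12:101279855-101280154, plus strand, RefSeq GRCh38.p14) is shown with CACGTG in capitals, the E-box that MYC and other factors can bind, found once with its first base at -10. CACGTG reads the same on both strands. It was in 21 of 50 processome promoters (42%), 27.8% of large subunit assembly promoters, 15.7% of promoters of genes lower in both lines and 9.73% of all tested genes with a promoter sequence.
UTP20: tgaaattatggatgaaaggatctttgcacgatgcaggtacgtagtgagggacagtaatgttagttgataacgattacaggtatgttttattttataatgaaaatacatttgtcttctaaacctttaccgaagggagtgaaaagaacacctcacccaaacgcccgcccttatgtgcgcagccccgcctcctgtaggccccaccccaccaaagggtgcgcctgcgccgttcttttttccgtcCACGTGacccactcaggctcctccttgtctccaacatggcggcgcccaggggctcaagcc

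Of 79 cytosolic ribosomal protein genes, 74 fell in D2000 (median -0.32), but 58 rose and 5 fell there with cyclic loess scaling (median 0.24). In KRAB-D9 8 rose and 7 fell (median 0.03), but 51 rose and 3 fell with cyclic loess. With interferon present doxycycline lowered 31 and raised 3 in KRAB-D9 (median -0.12). Their direction thus depends on the scaling, and in D6 3 fell and 0 rose by the edgeR test. Mitochondrial ribosomal protein genes fell in D2000 in 74 of 79 cases (median -0.64) and in KRAB-D9 in 36 (median -0.15), with 35 lower in both. MRPL1, of the large mitochondrial subunit, had effects of -0.71 ± 0.06 and -0.54 ± 0.06 that were not called different. With D6 in place of D2000 the difference of this list turned more positive, for 18 members against 1. Of 76 nuclear oxidative phosphorylation genes 61 fell and 2 rose in D2000 (34 and 10 with cyclic loess), and 16 fell and 5 rose in KRAB-D9 (6 and 15 with cyclic loess). With interferon present 27 fell and 1 rose in KRAB-D9. Of the 13 protein genes of the mitochondrial genome 6 rose and 0 fell in KRAB-D9 and 2 fell in D2000, where all 13 rose with cyclic loess.

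The genes lower in both lines with the largest smaller effect had other functions. CD24, a surface glycoprotein, was 103 and 109 CPM in D2000 and 872 and 846 CPM in untreated VPR-D9, and 28.6 and 24.8 CPM with doxycycline and 86.2 and 88.1 CPM without it in KRAB-D9 (-3.02 ± 0.06 and -1.71 ± 0.06). NMU, the neuropeptide neuromedin U, was 192 and 198 CPM in D2000 and 861 and 859 CPM in untreated VPR-D9, and 75.7 and 80.9 CPM with doxycycline and 229.9 and 234 CPM without it in KRAB-D9 (-2.14 ± 0.04 and -1.57 ± 0.04). The libraries of NMU and CD24 did not overlap within a line. In D6, NMU was not called (0.08) and CD24 fell a little (-0.24).

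Several of these genes fell at least as far in KRAB-D9 as in VPR-D9 by their point values. TMEM158, a membrane protein induced by RAS, gave -1.61 ± 0.19 and -1.91 ± 0.14, and PHLDA2, an imprinted growth regulator, -1.56 ± 0.15 and -1.66 ± 0.14. VGF, a neuropeptide precursor, gave -1.93 ± 0.32 and -2.34 ± 0.22, and CD3D, a subunit of the T cell receptor complex, -1.59 ± 0.26 and -2.46 ± 0.25. None of these 4 differences was called (edgeR adjusted p = 0.394, 0.795, 0.522 and 0.0681). MS4A3, a membrane protein of granulocyte precursors, fell further in D2000 (-2.93 ± 0.20 and -1.47 ± 0.23). GPR183, a chemotactic receptor for oxysterols, gave -3.15 ± 0.35 and -1.48 ± 0.38, the second being lost without untreated KRAB-D9 library 2 (edgeR adjusted p = 0.0888). IGFL2 had 0 counts in treated and 9 in untreated KRAB-D9, at least 3.13-fold lower, a call lost without untreated library 2 or either doxycycline library (edgeR adjusted p = 0.409, 0.0889 and 0.0914).

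Genes higher in both lines included LOXL4, a lysyl oxidase that crosslinks collagen. It was 18.7 and 15.9 CPM in D2000 and 0.284 and 0.0474 CPM in untreated VPR-D9, and 2.69 and 2.98 CPM with doxycycline and 0.225 and 0.364 CPM without it in KRAB-D9 (6.71 ± 0.42 and 3.29 ± 0.43, difference 3.42 ± 0.71, edgeR adjusted p = 0.000367). D6 gave a level of 0.413 CPM, not called against the untreated cells. BCAM, the laminin receptor that carries the Lutheran blood group, was 29.9 and 32.1 CPM in D2000 and 2.58 and 2.38 CPM in untreated VPR-D9, and 5.32 and 4.12 CPM with doxycycline and 1.5 and 1.09 CPM without it in KRAB-D9 (3.64 ± 0.18 and 1.85 ± 0.21). BCAM also rose in D6 (1.08) and in interferon-treated KRAB-D9 (1.77). ACSF2, a mitochondrial acyl-CoA synthetase, was 41.2 and 39.9 CPM in D2000 and 10.1 and 8.15 CPM in untreated VPR-D9, and 2.63 and 2.61 CPM with doxycycline and 0.506 and 1 CPM without it in KRAB-D9, with no called difference (0.32 ± 0.29).

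ADM2, a hormone of the calcitonin family whose gene responds to ATF4, gave 2.02 ± 0.33 and 1.77 ± 0.30. TCP11L2 gave 2.19 ± 0.26 and 1.66 ± 0.29, and YPEL2 1.68 ± 0.32 and 1.64 ± 0.28. SCNN1D, a sodium channel subunit, gave 1.79 ± 0.21 and 1.66 ± 0.25, and CRISP3, a secreted protein, 3.31 ± 0.42 and 1.93 ± 0.44. None of these 5 genes had a called difference. TRO (1.73 ± 0.43 and 1.71 ± 0.51) lost its KRAB-D9 call without untreated library 2 (edgeR adjusted p = 0.0944) or doxycycline library 1 (0.0797). GOLGA8N, another gene of near-identical copies, lost it without either untreated library (0.087 and 0.0666 by edgeR) or doxycycline library 2 (0.273).

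**Figure D4:**
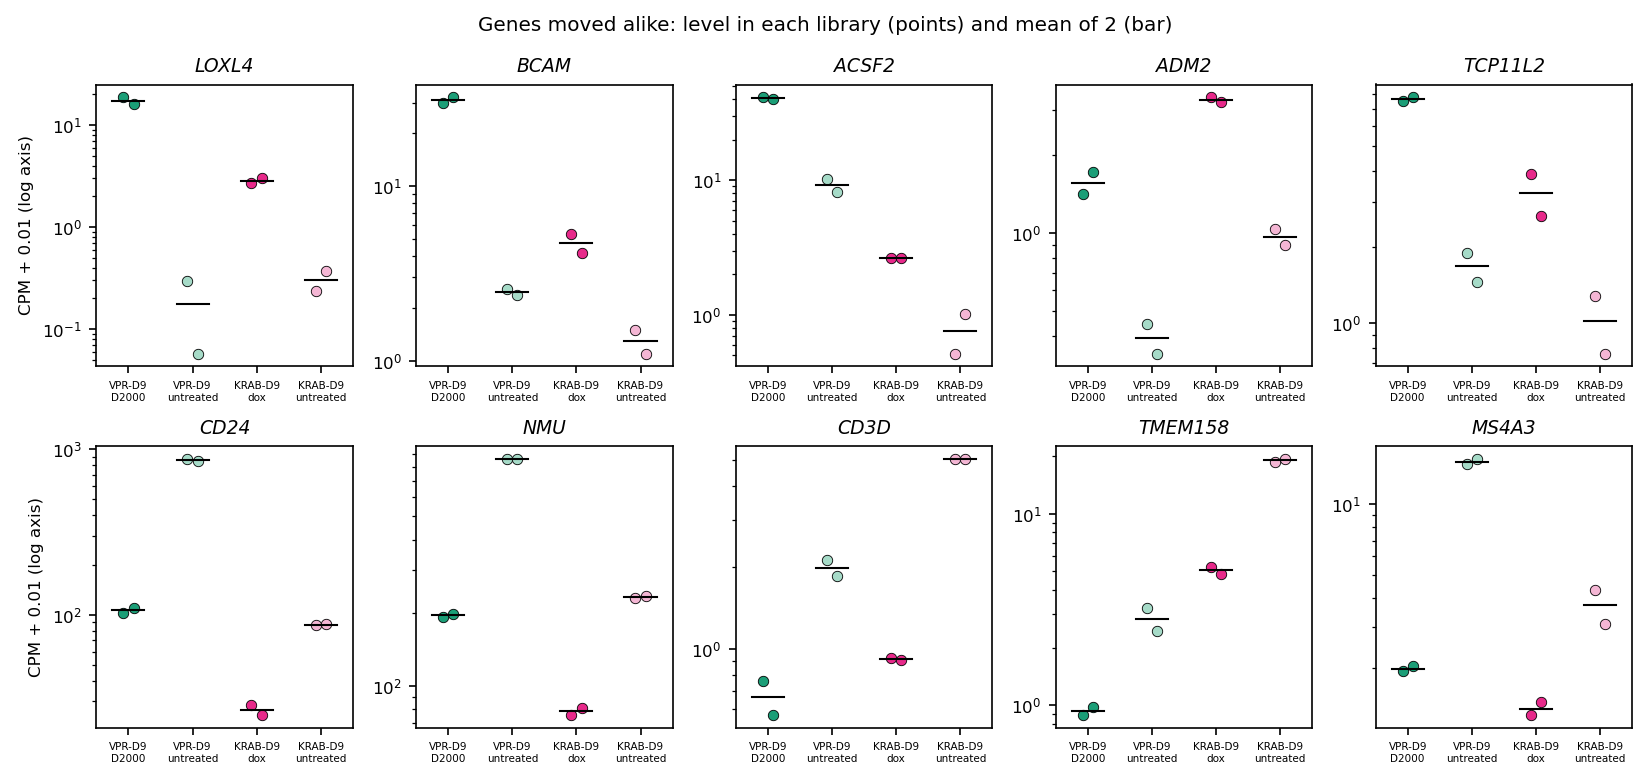
CPM plus 0.01 on a log axis for 10 genes moved alike, in D2000 and untreated VPR-D9 and in doxycycline-treated (dox) and untreated KRAB-D9. Points are the 2 libraries of a group and bars their mean. LOXL4, BCAM, ACSF2, ADM2 and TCP11L2 are higher, and CD24, NMU, CD3D, TMEM158 and MS4A3 lower, in the treated than in the untreated libraries of each line.

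Genes of the ATF4 response were split between the classes. Of 38, 20 rose and 2 fell in KRAB-D9 (median 0.21), while 10 rose and 18 fell in D2000 (median -0.06, and 14 and 14 with a median of 0.09 under cyclic loess). ATF4 itself was 105 and 105 CPM in D2000 and 169 and 171 CPM in untreated VPR-D9, and 331 and 313 CPM with doxycycline and 229 and 231 CPM without it in KRAB-D9, so it moved in opposite ways (-0.70 ± 0.04 and 0.49 ± 0.04). It was not called in D6 (-0.09 ± 0.04). CTH, which makes cysteine from cystathionine, rose in both (1.11 ± 0.12 and 0.84 ± 0.12), as did CHAC1, a glutathione-degrading enzyme named here for its promoter after its values were seen (1.81 ± 0.47 and 2.09 ± 0.40, at no more than 2.07 CPM in any of the 4 group means). SLC7A1, a cationic amino acid transporter, fell in D2000 (-1.42 ± 0.06) and was not called in KRAB-D9 (0.08 ± 0.06).

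The promoter of CHAC1 (chr15:40953221-40953520, plus strand, RefSeq GRCh38.p14) carries TGATGNAA, a composite site that ATF4 dimers can bind, once on the opposite strand, where it reads as the capitals below and begins at -209. Both strands were searched. TGATGNAA was in 6 of 35 promoters of the ATF4 list (17.1%), against 1.88% of all tested genes with a promoter sequence. It was in 3.44% of promoters of the class lower in VPR-D9 and higher in KRAB-D9, 1.55% of those higher in both and 1.12% of those lower in both.
CHAC1: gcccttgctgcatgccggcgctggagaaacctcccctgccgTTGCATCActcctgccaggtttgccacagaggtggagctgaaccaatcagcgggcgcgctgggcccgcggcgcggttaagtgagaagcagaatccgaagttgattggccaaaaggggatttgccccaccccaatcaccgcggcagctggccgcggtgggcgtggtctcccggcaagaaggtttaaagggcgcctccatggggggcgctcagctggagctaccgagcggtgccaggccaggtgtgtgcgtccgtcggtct

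PHGDH, the first enzyme of serine synthesis, rose in both lines but mostly in KRAB-D9. It was 53.2 and 51.9 CPM in D2000 and 35.4 and 37.1 CPM in untreated VPR-D9, and 42.3 and 34.8 CPM with doxycycline and 11.9 and 12.9 CPM without it in KRAB-D9 (difference -1.10 ± 0.13, edgeR adjusted p = 2.53e-09). PSAT1, the next enzyme, moved in opposite ways (-0.94 ± 0.07 and 0.68 ± 0.07). PYCR1 of proline synthesis and MTHFD1L of mitochondrial folate metabolism fell in D2000 (-1.57 ± 0.05 and -1.67 ± 0.06) and were not called in KRAB-D9 (0.04 ± 0.05 and 0.05 ± 0.05). Of 21 serine and one-carbon genes 14 fell and 4 rose in D2000, and 8 rose and 2 fell in KRAB-D9. All 20 cytosolic aminoacyl-tRNA synthetase genes fell in D2000 (median -0.53), against 12 lower and 4 higher with cyclic loess. In D6 3 fell and 1 rose. Their difference was more negative for 17 and more positive for 0, but for 8 and 4 with D6 in place of D2000. In KRAB-D9 8 rose and 7 fell. MARS1, which charges methionine tRNA, moved in opposite ways (-0.58 ± 0.04 and 0.35 ± 0.04), and RARS1, which charges arginine tRNA, fell alike (-0.49 ± 0.04 and -0.48 ± 0.04).

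Of 30 sterol synthesis genes, 19 rose and 3 fell in KRAB-D9 (median 0.26), and 24 rose and 2 fell with interferon present. In D2000 5 rose and 20 fell (median -0.25), but 10 rose and 9 fell with cyclic loess (median 0.04). The difference was more negative in VPR-D9 for 22 and more positive for 3, for 16 and 6 with cyclic loess, and for 20 and 3 with D6. HMGCS1, an early enzyme of the pathway, was 102 and 92.1 CPM in D2000 and 173 and 177 CPM in untreated VPR-D9, and 431 and 404 CPM with doxycycline and 258 and 266 CPM without it in KRAB-D9 (-0.85 ± 0.04 and 0.67 ± 0.04). INSIG1, a sterol sensor, gave -0.72 ± 0.05 and 0.41 ± 0.05. SREBF2, which encodes the factor that drives the pathway, rose alike (0.26 ± 0.04 and 0.29 ± 0.04), as did the sterol carrier STARD4 (0.50 ± 0.07 and 0.40 ± 0.07).

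In glucose use, SLC2A1, the main glucose transporter of red cells, moved in opposite ways. It was 53 and 53.3 CPM in D2000 and 114 and 113 CPM in untreated VPR-D9, and 328 and 313 CPM with doxycycline and 219 and 222 CPM without it in KRAB-D9 (-1.09 ± 0.05 and 0.54 ± 0.05). The hexokinase HK2 fell in both (-2.49 ± 0.06 and -0.51 ± 0.06), and so did enolase ENO1 (-1.14 ± 0.03 and -0.44 ± 0.03). Of 25 glycolysis genes 17 fell and 6 rose in D2000, and 11 fell and 5 rose in KRAB-D9, where 6 fell and 9 rose with interferon present and 9 fell and 8 rose with cyclic loess. Their difference was more negative for 18 and more positive for 6, and for 7 and 5 with D6 in place of D2000.

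**Figure D5:**
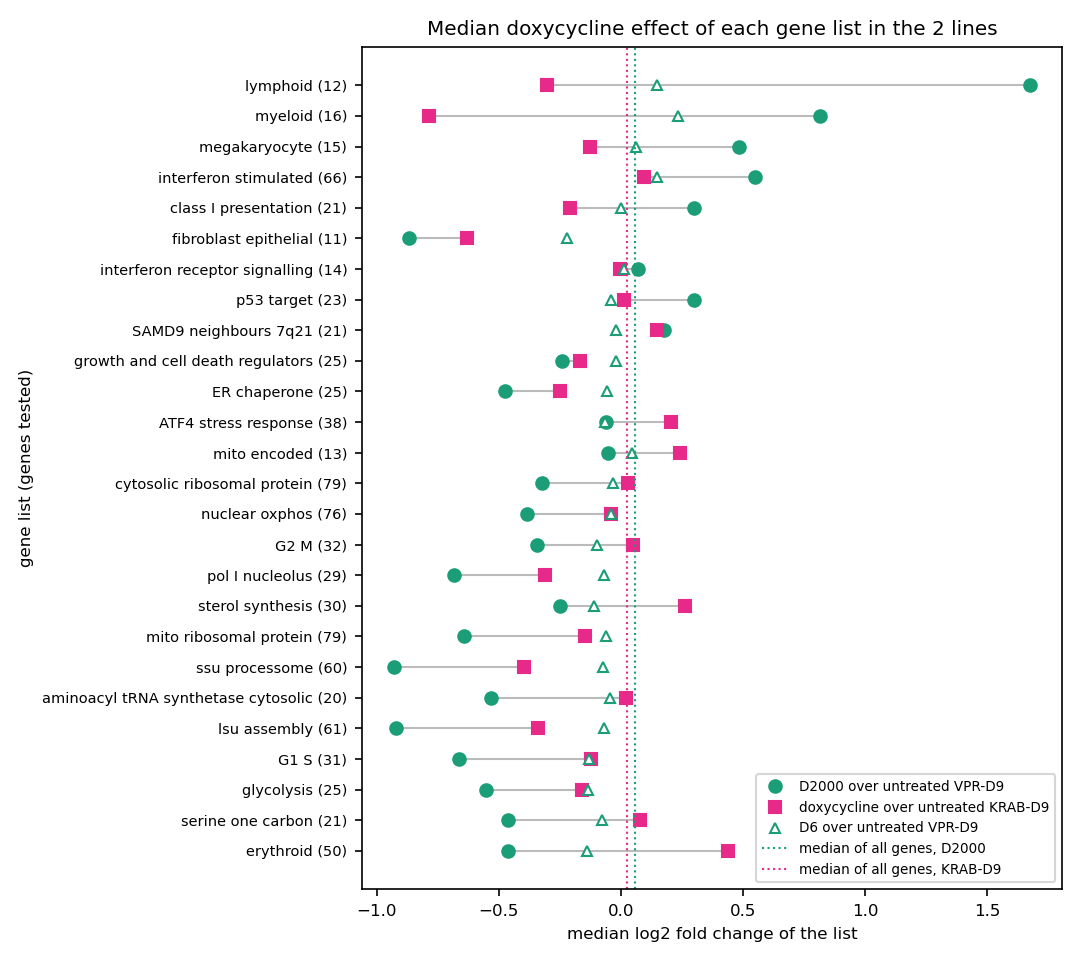
Median log2 fold change of each gene list (rows, number of genes tested in brackets) in D2000 (filled circles), KRAB-D9 (squares) and D6 (open triangles), ordered by the median difference, with dotted lines at the medians of all genes tested. The erythroid list lies at -0.46 in D2000 and 0.44 in KRAB-D9, and the small subunit processome at -0.93 and -0.40, with D6 at -0.07.

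Of 31 G1/S genes 30 fell and 1 rose in D2000 (median -0.66), and 13 fell and 2 rose in KRAB-D9 (median -0.12). The KRAB-D9 split was 4 lower and 5 higher with interferon present, and 6 lower and 3 higher with cyclic loess. Of 32 G2/M genes 23 fell and 2 rose in D2000, and 10 rose and 1 fell in KRAB-D9. Cyclic loess gave 13 lower and 9 higher in D2000, and 14 higher and 1 lower in KRAB-D9. The replicative helicase subunit MCM4 gave -1.09 ± 0.04 and -0.23 ± 0.04. Cyclin A2, CCNA2, fell in D2000 (-1.12 ± 0.04) and was not called in KRAB-D9 (0.06 ± 0.04), and the mitotic kinase CDK1 moved in opposite ways (-0.58 ± 0.04 and 0.17 ± 0.04). The phosphatase CDC25C rose alike (0.52 ± 0.09 and 0.53 ± 0.08). With D6 in place of D2000, the G1/S difference was called for 3 more negative and 1 more positive.

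Of 23 p53 target genes 13 rose and 6 fell in D2000, and 8 rose and 6 fell in KRAB-D9. In D6 1 rose and 3 fell. Their difference was more positive for 8 and more negative for 5, but for 4 and 8 with D6 in place of D2000. TP53INP1, a stress-induced regulator of autophagy and cell death, was 23.3 and 25.3 CPM in D2000 and 12.3 and 9.79 CPM in untreated VPR-D9, and 15.8 and 14.2 CPM with doxycycline and 5.94 and 6.07 CPM without it in KRAB-D9 (1.14 ± 0.11 and 1.32 ± 0.12). BTG2, an antiproliferative gene, rose in both and further in D2000 (1.67 ± 0.07 and 0.56 ± 0.06), and the cyclin CCNG1 rose alike (0.54 ± 0.05 and 0.51 ± 0.05). The exonuclease AEN fell in both (-1.56 ± 0.06 and -0.36 ± 0.06). K562 cells lack functional p53, so the list is named by its genes and not by the factor.

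Of 66 interferon-stimulated genes tested, 40 rose and 8 fell in D2000 (median 0.55), and 17 rose and 8 fell in KRAB-D9 (median 0.09), with 15 higher in both. The difference was more positive in VPR-D9 for 22 and more negative for 7, but for 7 and 10 with D6 in place of D2000. In interferon-treated KRAB-D9 cells doxycycline raised 7 and lowered 23. STAT2, a subunit of the interferon-activated complex ISGF3, rose alike (0.58 ± 0.05 and 0.50 ± 0.05). IFI27 rose in D2000, to 6.82 and 6.25 CPM against 1.54 and 1.61 CPM in untreated VPR-D9 (2.05 ± 0.10), and was not called in KRAB-D9 (-0.26 ± 0.16). The nucleotide kinase CMPK2 moved in opposite ways (-0.37 ± 0.06 and 0.50 ± 0.06), and so, with the other sign, did LGALS9, a galectin (1.61 ± 0.12 and -0.83 ± 0.18). IFITM2, which blocks viral entry, fell in both (-0.60 ± 0.05 and -0.93 ± 0.05). The interferon response element core (GAAA, any 2 bases, GAAA) was in 33 of 50 promoters of this list (66%), in 4.49% of promoters of the class of SAMD9 and in 2.97% of all tested genes with a promoter sequence.

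Of 21 class I presentation genes 6 rose and 5 fell in D2000, and 0 rose and 10 fell in KRAB-D9 by the edgeR test. In D6 0 rose and 4 fell. Their difference was more positive for 6 and more negative for 4, and for 6 and 0 with D6 in place of D2000. Over all genes tested, 21.9% rose and 24.2% fell in D2000, and 12% rose and 12.7% fell in KRAB-D9. The difference was more positive for 12.2% of all genes and more negative for 19.1%. HLA-E gave 0.31 ± 0.06 and -0.31 ± 0.07, but fell in D6 (-0.24). Of the endoplasmic reticulum chaperones, CALR, calreticulin, gave -0.64 ± 0.04 and -0.59 ± 0.04, and HSPA5, the main folding chaperone there, -0.61 ± 0.04 and -0.42 ± 0.04. Of 25 such chaperone genes 17 fell and 6 rose in D2000, and 15 fell and 2 rose in KRAB-D9, with 15 lower in both. Their difference was more negative for 12 and more positive for 5, but for 2 and 11 with cyclic loess and for 0 and 10 with D6. The fall of CALR in D2000 was not called with cyclic loess (-0.05, edgeR adjusted p = 0.177).

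The neighbours of SAMD9 on 7q21 did not move as a block. Of 21 tested, 5 rose and 4 fell in D2000, and 4 rose and 3 fell in KRAB-D9, with 0 in the class of SAMD9. The difference was called for 6, of which 5 were more negative in VPR-D9. Over all genes tested, 21.9% rose and 24.2% fell in D2000, and 12% rose and 12.7% fell in KRAB-D9. The class of SAMD9 held 1.49% of all genes, and the difference was called for 31.3%, with 19.1% more negative. GATAD1 was 84.6 and 87.1 CPM in D2000 and 84.7 and 87.5 CPM in untreated VPR-D9, and 88 and 89.3 CPM with doxycycline and 66.2 and 70.5 CPM without it in KRAB-D9 (0.38 ± 0.06 in KRAB-D9, not called in VPR-D9). CDK6, a cell cycle kinase, fell in D2000 (-0.93 ± 0.04), with a small fall in KRAB-D9 (-0.15 ± 0.04) that was lost without untreated library 2 (edgeR adjusted p = 0.0841) or doxycycline library 1 (0.0556). AKAP9 rose in D2000 (0.38 ± 0.05) and was not called in KRAB-D9 (0.12 ± 0.05).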

How the data were processed

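Per the labels' protocols, mRNA was polyA-selected and made into stranded libraries. The authors deposited raw counts per gene, whole numbers. Build GRCh38.p13 and the tools featureCounts 2.0.2, STAR 2.7.8a, cutadapt 2.10 and FastQC 0.11.9 are listed, with no order, per the submitters' processing notes. The sources used here give neither the strand setting nor the handling of multiply mapped reads, so genes with near-identical copies (HBG1 and HBG2, HBA2, GOLGA8N, GOLGA6L4) and overlapping or antisense genes are uncertain.

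Genes were filtered with filterByExpr by group, scaled by TMM and fitted with edgeR 4.0.16 glmQLFit (robust) in R 4.3.3, as group means over all 18 libraries, with 9 residual degrees of freedom (common biological coefficient of variation 0.0569). Dispersion was shared over groups. Contrasts were tested by glmQLFTest with Benjamini-Hochberg adjustment over 22143 genes. Every adjusted p in the text comes from this test unless another is named. Standard errors were taken as the size of the log2 fold change divided by the root of its F statistic, and are approximate where counts are few. Fold bounds use 3 counts over a group, and ratios with exact 95% counting intervals cover counting error only. DESeq2 1.42.0 was an alternative and limma 3.58.1 gave the cyclic loess scaling. The class calls were also run on simulated data. These counts used the fitted dispersions, few changed genes and no trend with expression level, so the run cannot bear on that trend in D2000.

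Named genes were SAMD9, SAMD9L and the 10 most positive and 10 most negative called differences, with libraries not overlapping in at least 1 line. To these came the 10 genes of each class and direction with the largest smaller effect, with libraries not overlapping in either line. Per list, the 3 smallest adjusted p of the difference and the 2 best alike were added, with no rule on overlap. Some further list members, among them KLF1, GATA1, HBG1, HBZ and HBE1, and the neighbours of GNG8 were named outside these rules. SAMD9 and SAMD9L apart, a mean of at least 1 CPM was required. Genes, lists and tests were chosen with earlier results of these data known, so no list test was run. Promoters are RefSeq's, with 12373 genes matched by symbol and the first listed start used. Alternatives tried were DESeq2's size factors and test, library totals, cyclic loess (added after the data were seen), other filters, a 1.5-fold threshold, D6, a replicate block, fewer groups and leaving out each library.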

Additional observations from a re-analysis of the deposited data

Results flagged for a closer look

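The difference between the doxycycline effects of the 2 lines was itself tested for each gene, and results with a called difference are collected here, with the log2 difference, VPR-D9 minus KRAB-D9. It was called for 6930 genes, of which 330 rose in VPR-D9 and fell in KRAB-D9 and 451 fell in VPR-D9 and rose in KRAB-D9. Groups of 2 libraries were too small to look for a single outlying library.

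Among genes named for a positive difference, SAMD9 had 7.22, CACNB1 4.91, KRT12 4.01, TRPM2 3.57, GOLGA6L4 3.55 and ACE 3.29, and PTGIR had 6.05. The fitted values of DPEP1 (16.68), RNF223 (15.41), GNG8 (14.24), DMKN (12.59), PTGER1 (11.13), PIGR (10.86), FRY (10.67), TMEM255A (8.39), MPP2 (8.35) and TRERF1 (7.65) rest on groups with few or no counts. They depend on the prior count, and their sizes are not to be read as folds. SAMD9 and PTGIR had few counts in doxycycline-treated KRAB-D9 too, 0 and 6 for SAMD9 and 7 and 2 for PTGIR. KRT12, TRPM2, GOLGA6L4 and ACE were given above among the KRAB-D9 effects that rested on few counts. The sizes of these differences are thus uncertain as well.

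Among genes named for a negative difference, the erythroid list held HBM (-4.65), AHSP (-3.62), EPB42 (-3.39) and CA1 (-3.35). Outside it were PKLR (-3.85), ADD2 (-3.45), WNT5B (-3.64), STAR (-3.56), NRG4 (-3.34) and C17orf99 (-3.27). TUBB1 had -2.37, HMCN1 -2.34, MFSD2B -2.16, H1-2 -2.11 and OR2AT4 -1.94. HBM and AHSP rest on few counts in VPR-D9.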

How the results depend on the processing

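Depth limits the genes under about 1 CPM in KRAB-D9, and the D2000 libraries and the scaling limit directions in VPR-D9. With edgeR and a 1.5-fold threshold, calls numbered 3356 for the difference, 5314 in D2000, 1441 in KRAB-D9, 1196 in interferon-treated KRAB-D9 and 371 in D6, with 630 genes alike and 167 opposite. With D6 in place of D2000 there were 3433 differences, 1461 calls in VPR-D9, 497 genes alike and 302 opposite, and with cyclic loess added 3439, 1137, 341 and 278. Reversals of direction were looked for among the named results only, and each value given is the smaller of the gene's 2 effects in that setting. With D6 in place of D2000, RARS1 (0.127, and 0.179 with cyclic loess added) and HLA-E (-0.236 and -0.219) were reversed. NMU (0.142), MYC (0.128), PIM2 (0.172) and MT-CO1 (0.16) were reversed with D6 and cyclic loess, and MT-CO1 (0.39) with cyclic loess alone. The causes were not tested. Leaving out 1 library gave 6037 to 6318 differences, 8660 to 10192 calls in D2000, 4081 to 5340 in KRAB-D9, 2655 to 3203 genes alike, 570 to 701 opposite, 4755 to 4886 calls in interferon-treated KRAB-D9 and 752 to 1463 in D6. D6 had 752 calls without untreated VPR-D9 library 1 and 784 without library 2, against 1461. Of 128 named genes in a class, 103 kept it without each library in turn. Same-numbered libraries did not deviate together (correlations -0.0725 in VPR-D9 and 0.0222 in KRAB-D9), so the numbers were not taken as pairs. A replicate block gave 6840 differences (2634 more positive, 4206 more negative), 10080 calls in D2000 and 5387 in KRAB-D9. It gave 3377 genes alike and 765 opposite, with 159 of 159 named results unchanged in call. With D6 in place of D2000, 77 of the 159 were unchanged, 80 weaker and 2 reversed. With cyclic loess added to D6 these numbers were 60, 93 and 6. Cyclic loess alone gave 145, 13 and 1, and the 1.5-fold threshold 87, 72 and 0.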
